A study of Mus musculus with 8 samples.

Results

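The levels of 10 genes that mark melanocytes or make pigment were described for keratinocyte and skin samples of JunB cKO and wild type mice. The genes are Sox10, Mitf, Kit, Dct, Tyrp1, Tyr, Pmel, Mlana, Slc45a2 and Oca2. They were picked by symbol, and all 10 were found in each of the 3 expression tables of the study, with 1 locus per gene and table, among 26340 gene symbols for unperturbed samples, 46036 for hair plucking and 46048 for wounds. The study compared JunB cKO with wild type mice of strain C57BL/6. In JunB cKO mice, given as JunB -/- in the labels, floxed JunB is cut by Cre under the K14 promoter, which is active in basal epidermal cells. Wild type mice are JunB +/+.

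Unperturbed samples came from mice 60 days old, without treatment. Hair was plucked at an age of 54 days and the skin was taken at 58 days, 4 days after plucking. Wounds were taken at day 30, and the age of these mice is not given in the sources used here. The study's wound healing methods describe 4 wounds per mouse with a diameter of 6 mm. Whether the sequenced wounds were of this kind is not stated. Each library was made from RNA pooled over 3 samples of its group. The labels list 8 libraries, namely 1 per genotype for unperturbed and plucked samples and 2 per genotype for wounds, but the wound table merges these into a single value. Hence every level below is a single value, no spread between samples can be given and no test was possible. The unit of all levels is FPKM, the number of sequenced fragments scaled to transcript length and library size.

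Melanocytes are pigment cells of neural crest origin, so they do not arise from the K14 expressing lineage in which JunB is deleted. In mouse skin most of them reside in the hair follicle, where stem cells of the bulge supply the pigment producing cells of the growing hair bulb. SOX10 switches on Mitf, and MITF binds the promoters of the genes for melanin synthesis. TYR, TYRP1 and DCT then turn tyrosine into melanin inside the melanosome, an organelle that is passed on to keratinocytes.

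The short motif that MITF is known to bind, called M-box, is given first and occurs at the genes of the 3 melanin enzymes. It was picked with the wound values known, and whether it bears on any level below was not tested. RefSeq promoter windows of 300 bases, 250 before and 50 after the RefSeq start of the gene on GRCm38.p6, were available for 6 of the 10 genes (Tyr, Tyrp1, Dct, Kit, Mitf and Oca2). Pmel, Mlana, Slc45a2 and Sox10 were not matched. The M-box core TCATGTG, searched on both strands, was present in Tyr, Tyrp1 and Dct, and not in these windows of Kit, Mitf and Oca2. It is printed in capitals with 11 bases on each side, 5′ to 3′ on the strand of the gene. The stretches shown lie at chr4:80834155-80834183 (plus strand) for Tyrp1, chr7:87493517-87493545 (minus strand) for Tyr and chr14:118052380-118052408 (minus strand) for Dct.
Tyr: gaaaaagttagTCATGTGctttgcagaag
Tyrp1: tggggagggagTCATGTGctgcctagtag
Dct: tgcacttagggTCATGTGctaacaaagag

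The core starts 22 bases before the RefSeq start in Tyr, 47 in Tyrp1 and 151 in Dct. In GENCODE release M21 the stretches of Tyr and Dct lie upstream of the gene, whereas all 29 bases of that of Tyrp1 lie in the first exon of 1 of its transcripts, in the 5′ UTR. Dct holds another copy on the opposite strand, 232 bases before the start. The stretch GTCATGTGCT was defined as what the printed copies of these 3 genes share around the core, so all 3 hold it by construction. The opposite strand copy of Dct was not used for it. The stretch was found in 42 of 27025 gene symbols with a promoter entry (0.155%), these 3 included, and the core alone in 4.31%. The core contains the general E-box CANNTG, which 75% of all symbols hold. The AP-1 motif TGANTCA, the kind of site that JunB is known to bind, was found in 8.97% of symbols and in none of the windows of the 6 genes. These matches describe letters in short windows and say nothing about binding.

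The targeted gene was checked first. Junb (chromosome 8) was listed at 268 FPKM in unperturbed wild type and 31.4 in JunB cKO, at 40.8 and 11.7 after hair plucking, and at 33.4 and 15.4 in wounds. It was thus lower in JunB cKO in every table and above 0 in all of them. The labels call unperturbed and plucked samples keratinocytes. Krt5, a keratin of basal keratinocytes, was at 2592 and 2690 FPKM in unperturbed wild type and JunB cKO, where Col1a1, a collagen of fibroblasts, was at 2.66 and 2.58. In contrast, plucked samples had Col1a1 at 1168 FPKM in wild type versus 527 in JunB cKO, which goes against the keratinocyte label, and their titles name skin biopsy. The tables were normalized separately, so levels are compared only between genotypes of the same table.

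**Figure D1:**
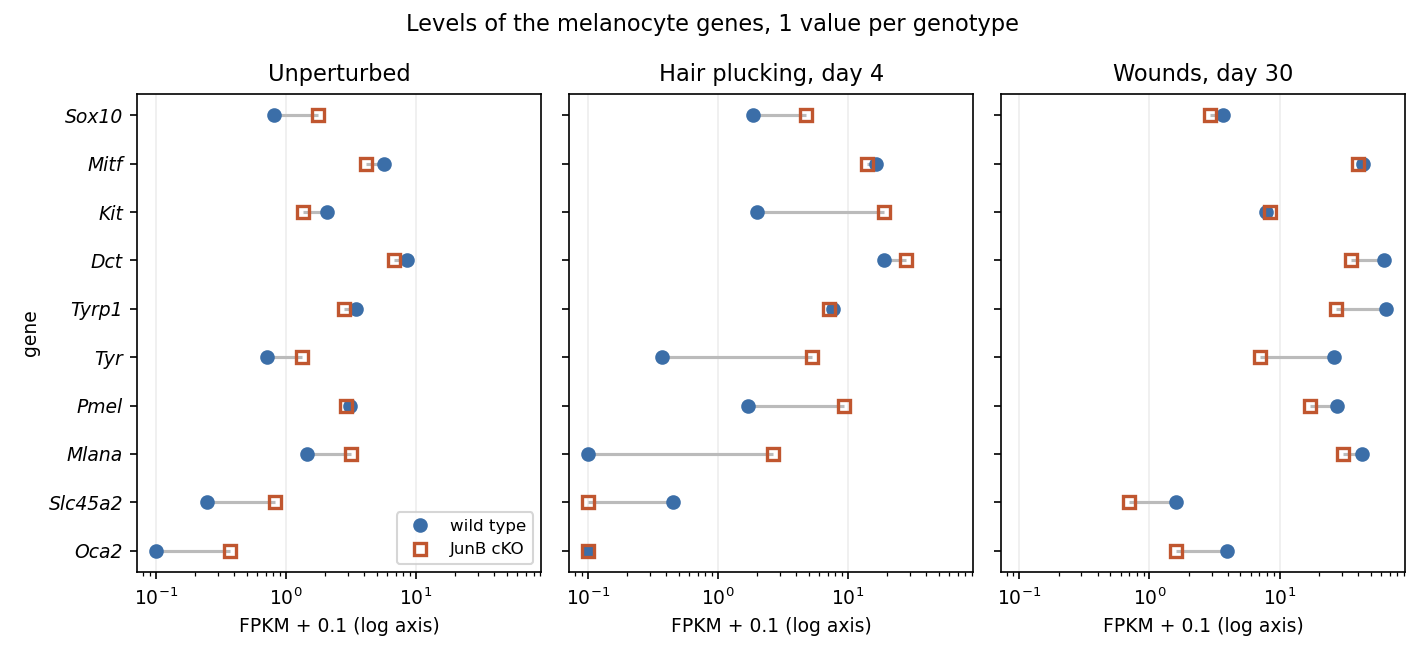
FPKM + 0.1 on a log axis for the 10 melanocyte genes in the unperturbed, hair plucking and wound tables, with 1 filled circle for wild type and 1 open square for JunB cKO per gene. Tyr lies to the right in JunB cKO after hair plucking (0.273 against 5.16 FPKM) and to the left in wounds (26.2 against 6.91 FPKM), while Mitf lies closer, with log2 ratios from -0.15 to -0.45.

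In wounds at day 30, the melanocyte genes were mostly lower in JunB cKO. Of the 10 genes, 9 were below wild type and only Kit was above it. The median log2 ratio of the 10 genes, as log2((cKO + 0.1)/(WT + 0.1)) of FPKM, was -0.77. The median of all symbols, many of them listed at 0, was 0. That of symbols that reached an FPKM of 1 in both genotypes was 0.01. Their FPKM summed to 286 in wild type versus 170 in JunB cKO. Of the 10 genes, Tyr and Tyrp1 (2 genes) were at least 2-fold lower by log2((cKO + 1)/(WT + 1)), a limit that 1.97% of all symbols passed downwards, or 5.23% of those that reached an FPKM of 1 in a genotype. None of the 10 passed it upwards, as compared to 2.14% and 5.69%, respectively. In these bulk samples, fewer melanocytes and less RNA per melanocyte cannot be told apart.

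All 3 melanin enzymes were lower in JunB cKO wounds. Positions are given on GRCm38, and all 10 genes are protein coding. Tyr, the rate limiting enzyme of melanin synthesis (chr7:87424771-87493512), was at 26.2 FPKM in wild type versus 6.91 in JunB cKO, which is 3.80-fold lower. Tyrp1, which oxidizes an intermediate of eumelanin, the dark pigment (chr4:80834123-80851719), was at 66.1 FPKM in wild type versus 27.1 in JunB cKO, or 2.44-fold lower. Dct, the dopachrome tautomerase that also marks melanoblasts, the precursors of melanocytes (chr14:118012790-118052244), was at 63.3 FPKM in wild type versus 35.2 in JunB cKO, or 1.80-fold lower. Among the enzymes the ratio was thus lowest for Tyr and nearest to 1 for Dct, and their sum went from 156 to 69.3 FPKM. The wound levels of Tyr rest on about 5408 reads in wild type versus 1324 in JunB cKO, over both libraries, if the longest coding transcript is taken as the length.

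The regulators upstream of these enzymes had values closer to wild type. Mitf, the lead transcription factor of the lineage (chr6:97807052-98021349), was at 44.0 FPKM in wild type wounds versus 39.7 in JunB cKO, a log2 ratio of -0.15. Sox10, a transcription factor of the neural crest (chr15:79154908-79165240), was at 3.56 FPKM in wild type versus 2.81 in JunB cKO, a log2 ratio of -0.33. Kit, the receptor for stem cell factor that melanoblasts need to survive and migrate (chr5:75574916-75656722), was at 7.69 FPKM in wild type versus 8.39 in JunB cKO. The FPKM of Tyr per FPKM of Mitf was therefore 0.597 in wild type versus 0.174 in JunB cKO, and that of Dct per Mitf was 1.44 and 0.888. These ratios are not levels per melanocyte, because the part of other cells in the Mitf value was not tested. None of these values can be read as no difference, since the spread between samples is unknown.

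Genes of the melanosome followed the enzymes in direction. Pmel, whose protein forms the fibrils on which melanin is laid down (chr10:128704195-128720238), was at 27.5 FPKM in wild type wounds versus 17.0 in JunB cKO. Mlana, a melanosomal membrane protein also known as MART-1 (chr19:29697824-29708634), was at 42.6 FPKM in wild type versus 30.5 in JunB cKO. Oca2, an anion channel component of the melanosome (chr7:56239760-56536518), was at 3.83 FPKM in wild type versus 1.495 in JunB cKO. Slc45a2, a transporter that keeps up melanosomal pH (chr15:11000721-11029233), was at 1.49 FPKM in wild type versus 0.590 in JunB cKO. Hence all 4 were lower, by log2 ratios from -0.48 for Mlana to -1.30 for Oca2. Without a pseudocount Oca2 was 2.56-fold and Slc45a2 2.52-fold lower, as compared to 2.44-fold for Tyrp1. Both were also past 2-fold with pseudocounts of 0.1 and 0.01. They missed the limit with the pseudocount of 1, which weighs more on low levels such as theirs.

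Pmel shares exon bases with neighbours on the opposite strand, 105 bp with Dgka and 34 bp with Cdk2. The library kit keeps the strand, but whether counting used it is not given in the sources used here. Dgka was at 22.4 FPKM in wild type wounds versus 21.9 in JunB cKO, and at 26.6 and 32.6 after hair plucking. In unperturbed samples it was at 53.0 and 30.0 FPKM, where Pmel was only at 3.02 and 2.80. The part of these neighbours in the Pmel values was not tested in any of the conditions. No other member shares exon bases with an overlapping gene in GENCODE release M21 on GRCm38.

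**Figure D2:**
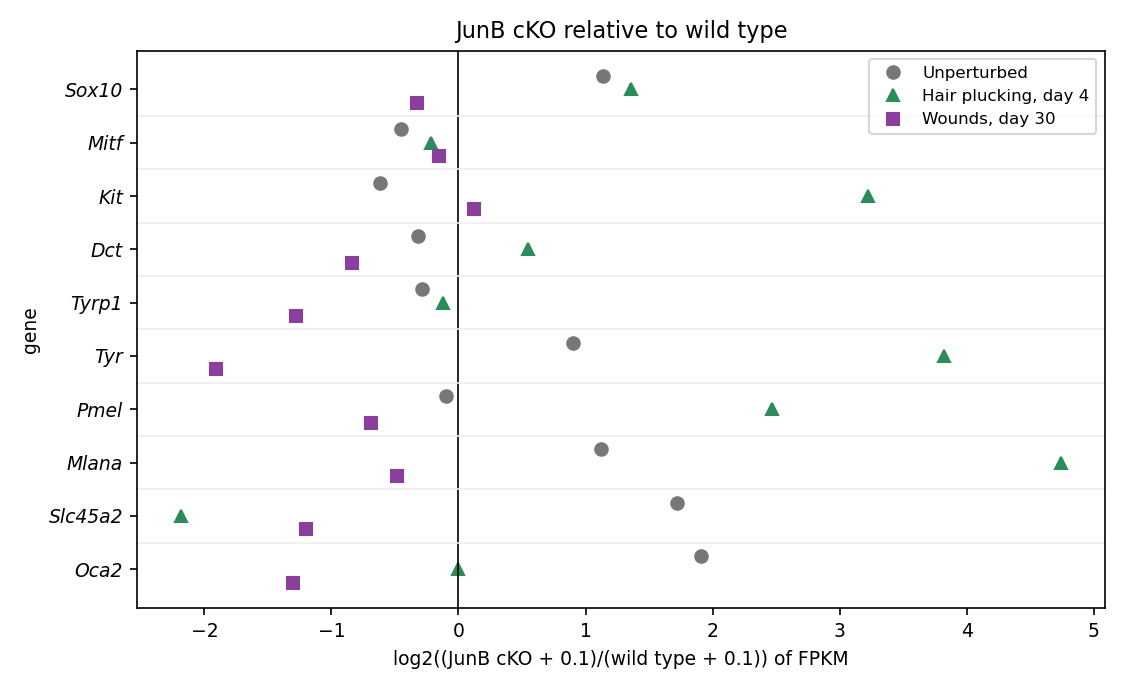
log2((JunB cKO + 0.1)/(wild type + 0.1)) of FPKM for each of the 10 genes, with a grey circle for unperturbed samples, a green triangle for hair plucking and a purple square for wounds. In wounds 9 of 10 squares lie left of 0, from -0.15 for Mitf to -1.91 for Tyr, while after hair plucking 6 triangles lie right of 0, Oca2 is at 0 in both genotypes and the values of Mlana and Slc45a2, listed at 0 in one genotype, are set by the pseudocount, as is that of unperturbed Oca2.

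Other genes with high levels in melanocytes were also lower in JunB cKO wounds. All 7 of this list were below wild type, with a median log2 ratio of -0.62 and none past 2-fold. Gpnmb, a melanosomal glycoprotein that macrophages also make, was at 390 FPKM in wild type versus 219 in JunB cKO. The 6 macrophage markers summed to 380 and 381 FPKM in the same wounds, mostly from Lyz2 at 311 and 305, with 3 higher and 3 lower. The part of macrophages in the Gpnmb value was not tested. Trpm1, a cation channel gene known as a target of MITF, was at 31.1 and 22.3 FPKM. Slc24a5, an ion exchanger of the melanosome whose human form affects skin colour, was at 11.4 and 6.19 FPKM, and Tpcn2, a cation channel that acts on melanosomal pH, was at 5.80 and 4.52.

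The machinery that sorts and moves melanosomes, which many other cells use for their lysosome related organelles, showed no common direction in wounds. Of its 21 listed genes 10 were higher and 11 lower, with a median log2 ratio of 0. Within the list, Rab38, a small GTPase that delivers the melanin enzymes to the melanosome, was at 36.7 FPKM in wild type versus 19.0 in JunB cKO. Only Hps1, a subunit of the BLOC-3 complex, passed the 2-fold limit, from 3.28 FPKM in wild type to 8.39 in JunB cKO.

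Among 10 listed signals and receptors of melanocytes, 4 were higher, 5 lower and none past 2-fold in wounds. Kitl, the ligand of KIT made by keratinocytes and dermal cells, was at 14.4 FPKM in wild type versus 13.6 in JunB cKO. Ednrb, the endothelin receptor of melanoblasts, was at 38.9 and 31.9 FPKM, and its ligand gene Edn3 at 0.797 and 0.818. Met, the receptor of hepatocyte growth factor, had the lowest ratio of the list with 47.5 FPKM in wild type versus 25.8 in JunB cKO. Of 12 other transcription factors 8 were higher and 4 lower, and Tfeb, a relative of Mitf known for lysosome genes, was past 2-fold with 5.03 FPKM in wild type versus 20.8 in JunB cKO. Mc1r, the receptor of melanocortin, was not analysed here in wounds or after plucking, and Asip, its antagonist, not in any table.

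Markers of other cells that express Kit or Sox10 also differed. Mast cells also carry KIT, and all 11 of their markers were higher in JunB cKO wounds, with a sum of 113 FPKM in wild type versus 184 in JunB cKO. Cpa3 and Mcpt4, proteases of mast cell granules, were at 35.7 and 28.3 FPKM in wild type versus 49.1 and 49.5 in JunB cKO. Schwann cells also express Sox10, and 8 of their 11 markers were higher, with a sum of 202 FPKM in wild type versus 257 in JunB cKO and Ncmap, a gene of myelinating cells, at 0.952 and 2.91. The part of mast cells in the Kit value and of Schwann cells in the Sox10 value was not tested.

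The growing hair matrix holds the keratinocytes next to the pigment producing melanocytes. Genes of its list, which also has keratins of the hair shaft and inner root sheath, were mostly lower in JunB cKO wounds as well. Of the 13 listed genes 11 were lower and 2 higher, the median log2 ratio was -0.44 and none passed the 2-fold limit. The inner root sheath keratins Krt71, Krt27 and Krt25 had the highest levels of the list. They were at 1623, 1342 and 1217 FPKM in wild type versus 1197, 931 and 977 in JunB cKO. Shh, a signal of the growing bulb, was at 1.90 and 0.511 FPKM. The sum of the 13 genes was 5420 FPKM in wild type versus 3900 in JunB cKO. Hair keratins share sequence with each other, so single members are less certain than the sum. The part of hair growth in the pigment gene values was not tested.

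**Figure D3:**
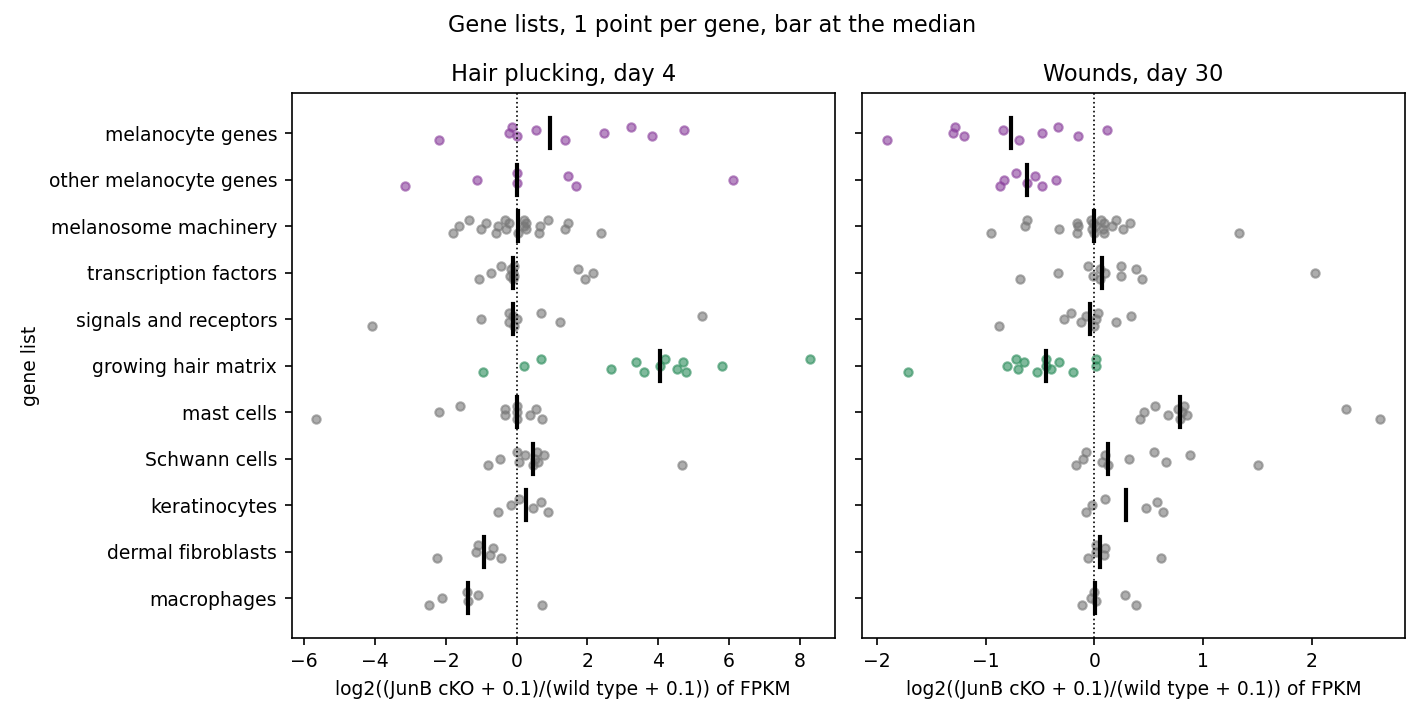
log2((JunB cKO + 0.1)/(wild type + 0.1)) of FPKM for 11 gene lists after hair plucking and in wounds, with 1 point per listed gene and a black bar at the median of the list. The median of the melanocyte genes is 0.96 after hair plucking and -0.77 in wounds. That of the growing hair matrix list, which includes hair shaft and inner root sheath keratins, is 4.06 and -0.44.

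At 4 days after hair plucking, when new hair growth has just been triggered, several melanocyte genes were higher in JunB cKO. Of the 10 melanocyte genes 5 were at least 2-fold higher in JunB cKO, namely Tyr, Kit, Pmel, Mlana and Sox10. Upwards, 6.42% of all symbols passed this limit, or 18.2% of those that reached an FPKM of 1 in a genotype. None of the 10 was 2-fold lower, as compared to 5.62% and 16% of symbols, respectively. The median log2 ratio of the 10 genes was 0.96. That of all symbols, many of them listed at 0, was 0, as was that of symbols that reached an FPKM of 1 in both genotypes. The sum of the 10 genes was 48.8 FPKM in wild type versus 89.2 in JunB cKO.

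The differences were uneven among receptor, enzymes and structural genes. Kit was at 1.92 FPKM in wild type versus 18.7 in JunB cKO, which is 9.74-fold higher. Tyr was at 0.273 FPKM in wild type versus 5.16 in JunB cKO, or 18.9-fold higher, from a wild type value close to 0. Pmel was at 1.597 and 9.27 FPKM, or 5.80-fold higher. Mlana was listed at 0 in wild type versus 2.58 FPKM in JunB cKO, so that no fold is given, and Sox10 was at 1.76 and 4.67. On the other hand, Mitf was at 16.3 FPKM in wild type versus 13.99 in JunB cKO, Tyrp1 at 7.63 and 7.003, and Dct at 18.9 and 27.8, and none of these passed the limit. Slc45a2 was listed at 0.352 FPKM in wild type versus 0 in JunB cKO, and Oca2 at 0 in both.

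Low levels in plucked samples are less certain than in wounds. Of 14431 symbols with at least 2 FPKM in one genotype after plucking, 1578 (10.9%) were listed at 0 in the other, as compared to 3.07% in unperturbed samples and 3.15% in wounds. A listing at 0, as of Mlana in wild type, is therefore more frequent in this table, although the deposited status of Mlana is OK. No read number could be estimated for plucked wild type. In JunB cKO the levels of Kit, Tyr and Mlana rest on about 992, 315 and 24 reads, respectively, an estimate from only 3 loci.

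Accordingly, the balance of the melanin enzymes differed between genotypes. Tyr made up 1% of the summed FPKM of Tyr, Tyrp1 and Dct in plucked wild type and 12.9% in JunB cKO. Dct made up 70.6% and 69.6%, and Tyrp1 28.4% and 17.5%. In wounds the share of Tyr was 16.9% in wild type versus 10% in JunB cKO, and Dct took 40.7% and 50.8%. Tyr was thus the enzyme whose share differed most between genotypes after plucking, and in wounds its share was lower in JunB cKO while that of Dct was higher.

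**Figure D4:**
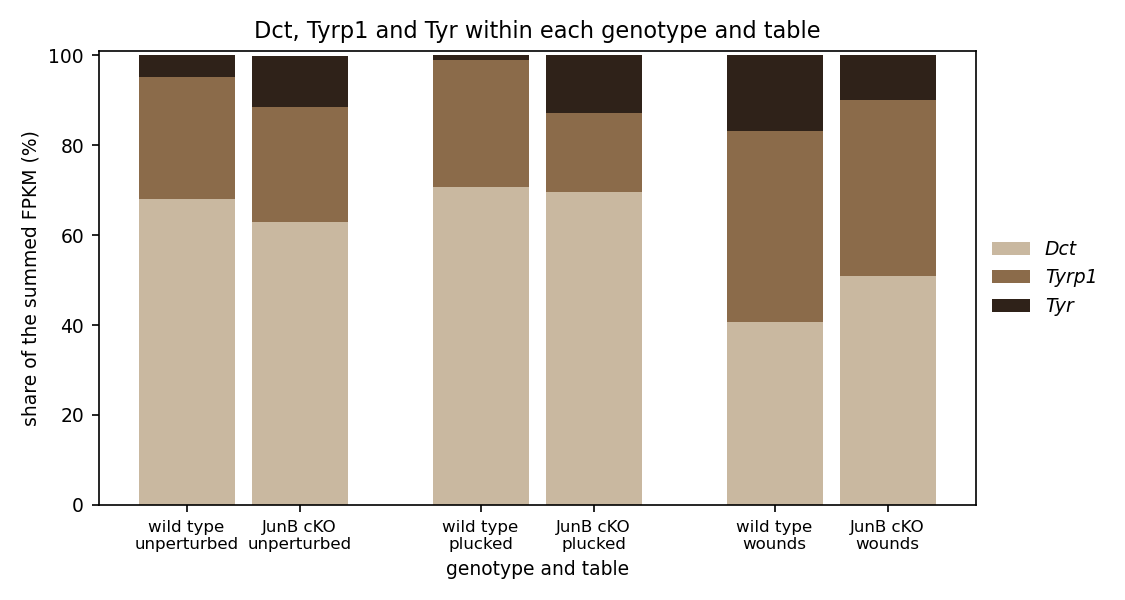
Share in percent of Dct, Tyrp1 and Tyr in their summed FPKM, as stacked bars for wild type and JunB cKO in each of the 3 tables. The share of Tyr is 1% in plucked wild type and 12.9% in plucked JunB cKO, and 16.9% and 10% in wounds.

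Among the other melanocyte genes after plucking, Trpm1 was listed at 0 in wild type versus 6.86 FPKM in JunB cKO, Slc24a5 was at 0.749 and 2.59, and Tpcn2 at 4.89 and 13.6, all past 2-fold. In contrast, Gpnmb was at 25.6 FPKM in wild type versus 11.7 in JunB cKO, and Gpr143 and Tspan10 were at 0 in both. The list thus had 3 genes past the limit upwards and 1 downwards of 7. The markers of macrophages, which also make Gpnmb, summed to 208 FPKM in wild type versus 72.7 in JunB cKO. The part of macrophages in the Gpnmb value was not tested here either. Of the sorting machinery, Hps1 and Bloc1s2 were 2-fold higher and Bloc1s5 and Dtnbp1, subunits of the BLOC-1 complex, 2-fold lower, among 21 listed genes with a median of 0.03.

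Signals to melanocytes also differed after plucking. Kitl was at 5.19 FPKM in wild type versus 8.47 in JunB cKO. Edn3, a ligand that drives melanoblast growth, was listed at 0 in wild type versus 3.66 FPKM in JunB cKO, while Edn1, which keratinocytes release, was at 1.601 in wild type but listed at 0 in JunB cKO. These were the only 2 of 10 listed signals and receptors past 2-fold, and both rest on a listing at 0. Ednrb was at 1.72 and 1.46 FPKM. Of the transcription factors, Lef1, a Wnt effector of the hair matrix and of melanoblasts, was at 1.46 and 6.94 FPKM, and Tfap2b was at 6.13 and 20.8. Of the 12 factors 3 were higher and 9 lower, with a median log2 ratio of -0.10, and of the 10 signals and receptors 3 were higher and 6 lower.

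The higher levels after plucking went with the hair matrix list. Its inner root sheath keratins Krt71, Krt25 and Krt27 had the highest levels in JunB cKO. Of its 13 genes 12 were higher in JunB cKO and 10 were past 2-fold, with a median log2 ratio of 4.06. Their sum was 55.5 FPKM in wild type versus 446 in JunB cKO. Only Hoxc13 was lower, at 5.34 and 2.71 FPKM. Krt71 was at 26.1 FPKM in wild type versus 168 in JunB cKO, Krt25, another inner root sheath keratin, at 5.28 and 98.5, and Krt33a, a keratin of the hair cortex, was listed at 0 and at 30.9. The others past 2-fold were Krt27 at 9.13 and 94.6 FPKM, Krt34 at 1.04 and 19.0, Krt86 at 0.314 and 9.49, Foxn1 at 0.0814 and 2.11, and Krt35, Krt31 and Shh, with JunB cKO levels of 5.51, 2.47 and 2.67 FPKM against a wild type listing at 0.

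Cells of the dermis differed as well. Dermal fibroblast markers were lower in all 6 cases, with a sum of 5110 FPKM in wild type versus 1860 in JunB cKO. The collagen genes Col1a1, Col1a2 (525 and 245 FPKM) and Col3a1 (2559 and 535 FPKM) passed 2-fold. Of the macrophage markers Cd68 was at 34.9 and 6.23 FPKM, Lyz2 at 136 and 51.5, Adgre1 at 9.98 and 2.26, Csf1r at 18.3 and 8.48, and Itgam at 7.51 and 2.85, so that 5 of 6 were past 2-fold downwards. Thus the 2 plucked samples differed in more than the pigment genes, and whether they hold the same parts of the skin and the same hair cycle stage was not tested.

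Mast cell and Schwann cell markers showed smaller differences as sums after plucking. The 11 mast cell markers summed to 58.8 FPKM in wild type versus 53.9 in JunB cKO, 3 were higher and 5 lower, and Cpa3 was at 14.5 and 18.9 FPKM while Mcpt4 was at 9.48 and 7.58. Hdc, which makes histamine, was at 4.91 FPKM in wild type but listed at 0 in JunB cKO, and Ms4a2, a chain of the IgE receptor, was at 3.02 and 0.922, both past 2-fold. Of the 11 Schwann cell markers 8 were higher with a sum of 170 and 184 FPKM, and S100b was listed at 0 and at 2.42.

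In unperturbed samples, none of the 10 melanocyte genes passed the 2-fold limit in either direction, and 5 were higher and 5 lower. Upwards, 9.31% of all symbols passed, or 15.4% of those that reached an FPKM of 1 in a genotype, and downwards 0.847% and 1.4%. The median log2 ratio of the 10 genes was 0.40, as compared to 0.18 for all symbols and -0.17 for symbols that reached an FPKM of 1 in both. It turned to -0.10 when Oca2, listed at 0 in wild type, was left out, so it gives no direction. The sum of the 10 genes was 25.2 FPKM in wild type versus 24.5 in JunB cKO.

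Genes with the higher levels were somewhat lower in unperturbed JunB cKO. Dct was at 8.40 FPKM in wild type versus 6.71 in JunB cKO, Mitf at 5.59 and 4.05, Tyrp1 at 3.33 and 2.71, Pmel at 3.02 and 2.80, and Kit at 1.98 and 1.25. Of their log2 ratios, from -0.10 for Pmel to -0.62 for Kit, only that of Pmel was above the -0.17 of expressed symbols. Genes with low levels in wild type were higher in JunB cKO, namely Mlana at 1.36 and 3.08 FPKM, Sox10 at 0.706 and 1.68, Tyr at 0.609 and 1.23, Slc45a2 at 0.149 and 0.721, and Oca2 at 0 and 0.275. This split by level was read against genes that skin should lack.

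For this purpose, 1453 genes of odorant, vomeronasal and bitter taste receptors served as background. Their median was 0 FPKM in unperturbed wild type and 0.543 in JunB cKO, and their 95th percentile was 0 and 1.65. In JunB cKO 6 of the 10 melanocyte genes lay above the 95th percentile. In wild type this limit is 0, so the 9 genes above it were only those not listed at 0, and at the 99th percentile of 0.158 FPKM Slc45a2 with 0.149 lay below. Kit, Tyr, Slc45a2 and Oca2 were at or below 1.25 FPKM in JunB cKO and thus below its 95th percentile. Sox10 lay just above that limit at 1.68. The limit was not matched for transcript length, and the longest coding transcripts of Kit and Tyr have 5241 and 6042 bp. Whether these 2 genes exceed the background of genes of their length was not tested. Per kb of transcript, 1 FPKM corresponded to 13.3 reads in wild type versus 3.92 in JunB cKO, so that Tyr in JunB cKO rests on about 29 reads and Mlana on 11. When the receptor median of each library was subtracted, the log2 ratio of Tyr went from 0.90 to 0.14 and that of Kit from -0.62 to -1.36.

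**Figure D5:**
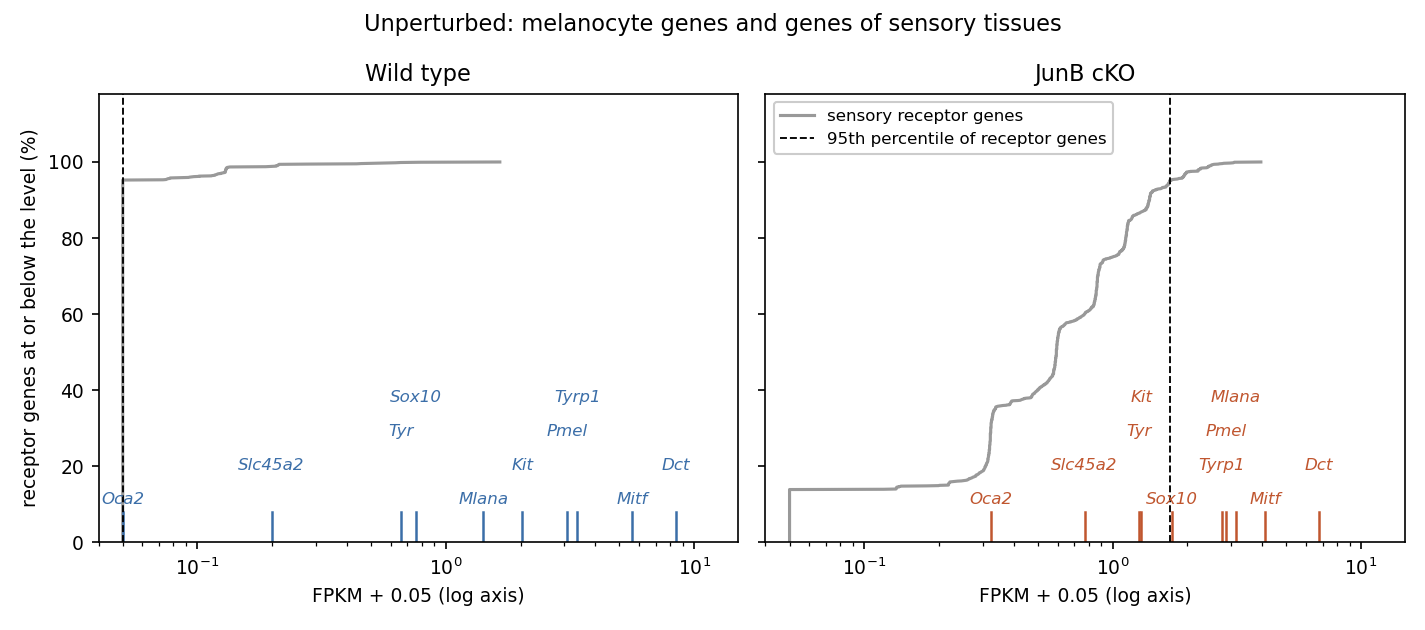
Share in percent of sensory receptor genes at or below a level, against FPKM + 0.05 on a log axis, as a grey line for the unperturbed wild type and JunB cKO libraries. Coloured ticks mark the 10 melanocyte genes, and the dashed line is the 95th percentile of receptor genes, at 0 FPKM in wild type versus 1.65 FPKM in JunB cKO, where 6 ticks lie to its right.

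Several signals and markers of other cells in unperturbed samples were also below the 95th percentile of the receptor genes in JunB cKO. Edn3 was at 0.0428 FPKM in wild type versus 1.598 in JunB cKO, Fgf2, a growth factor of melanocytes, at 0.239 and 1.62, Tfec, a relative of Mitf, at 0.0375 and 1.27, and Mc1r at 0.154 and 0.811, all below 1.65 in JunB cKO. Kitl, above it, was at 4.35 and 3.44 FPKM. The mast cell markers summed to 7.05 FPKM in wild type versus 15.7 in JunB cKO, 7 of 11 were listed at 0 in wild type, all 11 were higher in JunB cKO, and Cpa3 was at 0.0472 and 0.481 FPKM. Past 2-fold were Tpsb2, a mast cell tryptase, with 0 and 1.81 FPKM, above the receptor limit, and Tpsab1, another tryptase, with 0 and 1.35. The Schwann cell markers summed to 152 and 122 FPKM. Cpa3 was thus near 0 in wild type, whereas Mrgprb2, a receptor of mast cells, was at 6.87 and 8.23 FPKM. The 13 genes of the hair matrix list summed to 61.5 and 60.4 FPKM, with a median log2 ratio of 0.05. Shh, at 0.312 and 2.03 FPKM, and Dlx3, a transcription factor of the matrix, at 6.12 and 13.7, passed the 2-fold limit.

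The pattern of the enzymes over the 3 tables was compared with all 10791 symbols that reached an FPKM of 1 in every table. The medians of Tyr, Tyrp1 and Dct were log2 ratios of -0.29 in unperturbed samples, 0.55 after hair plucking and -1.28 in wounds. The nearest genes by Euclidean distance over these 3 values were Dnajc6 at 0.169, St7 at 0.181, Srm at 0.207, Tmem53 at 0.249 and Asb7 at 0.259. None of them is in the lists used here, and with 3 values per gene the likeness is a description only.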

How the data were processed

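RNA-seq of unperturbed samples, titled keratinocytes, and of plucked and wounded samples, titled skin biopsies, was analysed from 3 deposited tables. According to the study's methods and the labels, the authors pooled RNA, removed rRNA, prepared directional libraries, aligned the reads to mm10 and calculated 1 FPKM value per gene locus and genotype with Cufflinks and Cuffdiff, with replicates of wounds combined. The other deposited columns (log2 fold change, test statistic, p-value and q-value) hold the authors' own comparison and were not used. Columns were assigned to genotypes by the sample names that each table carries, matched to the labels, whereas the condition of 2 tables is given only by their file titles.

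Each symbol was represented by its locus of highest FPKM over both genotypes. Ratios are log2((cKO + 0.1)/(WT + 0.1)), which understates differences of low genes, and the 2-fold limit was set on log2((cKO + 1)/(WT + 1)). No test was carried out, because each table holds 1 value per genotype. Receptor genes with a locus of 880 to 1000 bp gave the reads behind 1 FPKM, from steps of whole reads, at 34.1 for wild type wounds and 31.7 for JunB cKO wounds (only 2 loci) per kb. These values cover counting error only and are not the sequencing depth, which is unknown. Gene positions are 1-based on GRCm38 from GENCODE release M21. Calculations were tested on simulated data.

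The 10 members and all lists were chosen with earlier results of these data known. The rule for named genes covers all members, genes of the lists past 2-fold or at the ends of their list, a few defining markers, and the 5 symbols most like the melanin enzymes. Other genes of the lists were named after their values were seen. Not every gene at the end of a list was named, and 1 defining marker is not reported here. The alternatives tried were other pseudocounts, a minimum FPKM of 1, centring, summed loci, subtraction of the receptor median, failed estimates left out, a 1.5-fold limit and, added after the data had been seen, symbols listed at 0 left out. Python 3.11.15, pandas 2.3.3, numpy 2.4.6 and matplotlib 3.10.9 were used.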

Additional observations from a re-analysis of the deposited data

Results flagged for a closer look

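Tyr lay in opposite directions in 2 tables. With a pseudocount of 1, its log2 ratio of JunB cKO over wild type was 2.28 after hair plucking and -1.78 in wounds, past the 2-fold limit in both. The difference was not tested, since each table has 1 value per genotype. The plucked wild type level of 0.273 FPKM is close to 0 in a table where 10.9% of symbols with at least 2 FPKM in one genotype were listed at 0 in the other.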

How the results depend on the processing

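Of 78 summaries under alternatives 66 stayed close to the reported value, 9 moved and 3 reversed. The unperturbed median of 0.40 turned to -0.20 with a minimum FPKM of 1, to -0.20 after subtraction of the receptor median, and to -0.10 with symbols listed at 0 left out, which was chosen after seeing the data. The median after hair plucking moved from 0.96 to 1.91 with a minimum FPKM of 1. With pseudocounts of 0.01 and 0.1, 4 genes were 2-fold higher in unperturbed JunB cKO in place of 0, 1 was lower after hair plucking in place of 0, and 4 were lower in wounds in place of 2. With a 1.5-fold limit, 2 genes were higher in unperturbed samples and 6 lower in wounds. Of 232 values of single genes 12 moved, 7 in unperturbed samples, 5 after hair plucking and 0 in wounds, and 0 reversed.

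No paired analysis was possible because the wound table does not separate the 2 libraries per genotype. For the same reason the limma fit and the analyses leaving out 1 library were not run. Low genes in unperturbed JunB cKO rest on few reads, since 1 FPKM of a 1 kb transcript stood for 3.92 reads. For plucked wild type this number was not estimated.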
